A study of Homo sapiens with 104 samples.

Results

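Transcript levels of the BCL2 family were examined in 26 human lines of lymphoblastoid cells, which derive from B cells, untreated and after the methylating agent MNNG. The set held 10 genes: the anti-apoptotic members BCL2, BCL2L1, BCL2A1 and MCL1, the effectors BAX and BAK1, and the BH3-only members BBC3, PMAIP1, BCL2L11 and BID. Members were taken as the probe sets that carry the single symbol of one of these genes in the annotation of the array, which gave 30 of 54675 probe sets and 9 of the 19775 genes measured in this way. BBC3 had no such probe set, because the one that covers it also carries microRNA symbols, so it is without values here. Of the 30 probe sets, 27 passed the filter on low levels. The other 3, of BCL2L1, BCL2L11 and MCL1, were too dim to be tested.

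The proteins of this family decide whether the outer membrane of the mitochondrion stays intact. BAX and BAK1 open pores in it and let cytochrome c escape, the anti-apoptotic members hold them in check, and the BH3-only members carry stress signals by binding the anti-apoptotic members or by activating BAX and BAK1 directly. In B-lineage cells survival leans on MCL1, BCL2 and BCL2A1, while BAX, BBC3 and PMAIP1 are textbook targets of the transcription factor p53.

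The lines were a panel of 24 numbered lines of the NIH Polymorphism Discovery Resource, the established line TK6, and MT1. MT1 is a single TK6-derived line that was selected for resistance to alkylating agents and is deficient in mismatch repair, the pathway through which methylated guanine left unrepaired becomes lethal. RNA of each line in mid log growth was hybridised in duplicate, untreated and after MNNG, in 52 groups of 2 arrays. Neither the dose of MNNG nor the time of exposure is given in the sources used here, and untreated cells served as the controls. Duplicates are not stated to be separate cultures, so p-values that rest on them may measure technical spread alone. In bulk RNA, fewer cells with a transcript and less of it per cell cannot be told apart.

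In 22 of the 52 MNNG arrays, 21 of panel lines and 1 of MT1, a probe set for the spiked-in cre transcript differed from its partner by -6.45 to -5.19 log2 units, against 0.0821 to 0.83 in all other arrays. These were set aside, which left 82 arrays: all 52 untreated ones, both MNNG arrays of TK6, 1 of MT1, and at least 1 for 19 panel lines (both for 8 of them, 1 for 11). Levels are given as log2 of the deposited intensity plus 16 after quantile normalisation, on which scale the floor of the array is 5, and all fold changes are on this scale. No array was at the floor for the leading probe set of any member. The median deposited intensity of the arrays kept ran from 16, the floor, to 64.4. All 7 B-cell markers measured had a median untreated level above 6 (8.21 to 12.95), as did all 5 plasma cell markers (6.67 to 10.05). Fewer passed in the other lists: 1 of 7 T and NK cell markers (5.28 to 6.05), 2 of 6 myeloid markers (5.39 to 7.65) and 3 of 8 fibroblast and epithelial markers (5.31 to 7.56). The label as B-lineage cells thus held, but this cut did not set B-cell markers apart from plasma cell markers. The highest myeloid and the highest fibroblast and epithelial marker also lay above the lowest plasma cell marker, though below every B-cell marker. The ratio of the 3′ to the 5′ probe set of ACTB, a measure of RNA integrity, had a log2 median of 0.05 in untreated and 0.28 in MNNG arrays of the panel. It was 0.26 untreated and 0.39 after MNNG in TK6, and 0.29 and 0.57 in MT1. The part of these differences in the results below was not tested.

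Before treatment, every measured member differed between the 24 panel lines, and on leading probe sets, which the values below refer to unless stated, none by more than 3-fold. All 9 passed the limma F test on single arrays, where 68.1% of all genes tested did, a share against which this count has to be read. The spread between duplicate arrays (SD) was 0.07 to 0.23 for the 9 genes. Since probe sets differ in brightness, levels are compared between lines and not between genes.

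Among the anti-apoptotic members, BCL2A1, an NF-kB target of activated B cells, ranged from 9.97 in line 2 through a median of 10.81 to 11.54 in line 19, the widest span among leading probe sets (2.98-fold, adjusted p = 1.12e-21). BCL2L1, which encodes BCL-XL, ranged from 6.80 in line 20 through 7.50 to 8.31 in line 11 (2.84-fold, adjusted p = 3.32e-13). MCL1, a protein of rapid turnover, ranged from 9.77 in line 5 through 10.42 to 10.97 in line 20 (2.28-fold, adjusted p = 1.56e-19). Line 20 thus had the highest MCL1 and the lowest BCL2L1 of the panel. BCL2, the founding member, ranged from 8.45 in line 4 through 8.97 to 9.56 in line 22 (2.17-fold, adjusted p = 1.25e-14).

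The effectors differed between lines too. BAX ranged from 7.71 in line 14 through 8.48 to 9.06 in line 5 (2.55-fold, adjusted p = 4.10e-06), and its duplicates were the least alike of the family (SD 0.23). BAK1 ranged from 6.84 in line 19 through 7.25 to 7.96 in line 20 (2.18-fold, adjusted p = 7.72e-05), so line 20 was highest for BAK1 as well. Among the BH3-only members, BID, which links death receptors to mitochondria, ranged from 8.77 in line 11 through 9.59 to 10.26 in line 23 (2.81-fold, adjusted p = 1.41e-21). PMAIP1, which encodes NOXA and chiefly blocks MCL1 and BCL2A1, ranged from 10.14 in line 20 through 10.76 to 11.19 in line 14 (2.07-fold, adjusted p = 4.93e-10). BCL2L11, which encodes BIM, spanned least on its leading probe set, from 7.73 in line 15 through 8.09 to 8.58 in line 8 (1.80-fold, adjusted p = 0.00133), and its call was lost on the values as deposited. On 2 other BCL2L11 probe sets the lines spanned 3.01 and 3.10 log2 units, more than on any leading probe set. The leading probe set of no member spanned the 2 log2 units asked before genes of like pattern were sought, so none are named.

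Before treatment, TK6 and MT1 both read outside the range of the 24 panel lines for 4 members on leading probe sets. How many of all genes did so was not counted, so this number has no background. As a separate test, the mean of TK6 and MT1 was compared with the 24 lines as 1 unit, because both come from one cell. It called 3 of 9 members (1 higher, 2 lower), where 14.5% of all genes were called (6.93% higher, 7.61% lower). BCL2A1 read 8.51 in TK6 and 8.70 in MT1, below every panel line, and was 4.47-fold lower than the panel mean (log2 -2.16 ± 0.39 SE, adjusted p = 0.000295). MCL1 read 9.25 and 9.52, also below every panel line (-1.03 ± 0.33, adjusted p = 0.034). Its second bright probe set gave -1.74 (adjusted p = 0.001), and on all 5 MCL1 probe sets tested singly both lines were below all 24. The call on the leading MCL1 probe set was lost when arrays were centred on their medians, where the difference was -0.80.

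BCL2L11 lay on the other side of the panel. Its leading probe set read 8.92 in TK6 and 8.64 in MT1, above all 24 lines (0.69 ± 0.23, adjusted p = 0.0458), a call that was lost in 11 of the 24 fits that left out 1 line. Other BCL2L11 probe sets separated the lines far more. One of them read 9.42 and 9.42 in the TK6 duplicates and 9.67 and 9.67 in those of MT1, while the panel ran from 5.34 through 6.49 to 8.35 (difference 2.98, adjusted p = 0.0165). Another read 10.95 and 10.84 in TK6 and 11.19 and 11.00 in MT1, against 6.59 through 7.32 to 9.69 in the panel (difference 3.41, adjusted p = 0.00449). On 4 of the 6 BCL2L11 probe sets tested singly, TK6 and MT1 were called higher (12.1% of all probe sets tested singly were called in either direction), and on each of these both lines were above all 24 panel lines. PMAIP1 also read above every panel line on its leading probe set, at 11.54 in TK6 and 11.38 in MT1. Its difference of 0.74 ± 0.29 did not pass the test (adjusted p = 0.0969). On its second probe set 1 panel line lay above MT1 and none above TK6, and the difference of 0.60 was not called. BCL2, BCL2L1, BAK1, BAX and BID differed by -0.58, -0.41, -0.24, -0.03 and -0.05, none of them called. Among the members called, TK6 and MT1 thus combined low transcript levels of 2 anti-apoptotic genes with a high level of a BH3-only gene relative to the panel. BH3-only genes outside the set did not share this direction: BMF was called lower (-1.06), and BIK (-1.68) and BAD (0.17) were not called.

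**Figure D1:**
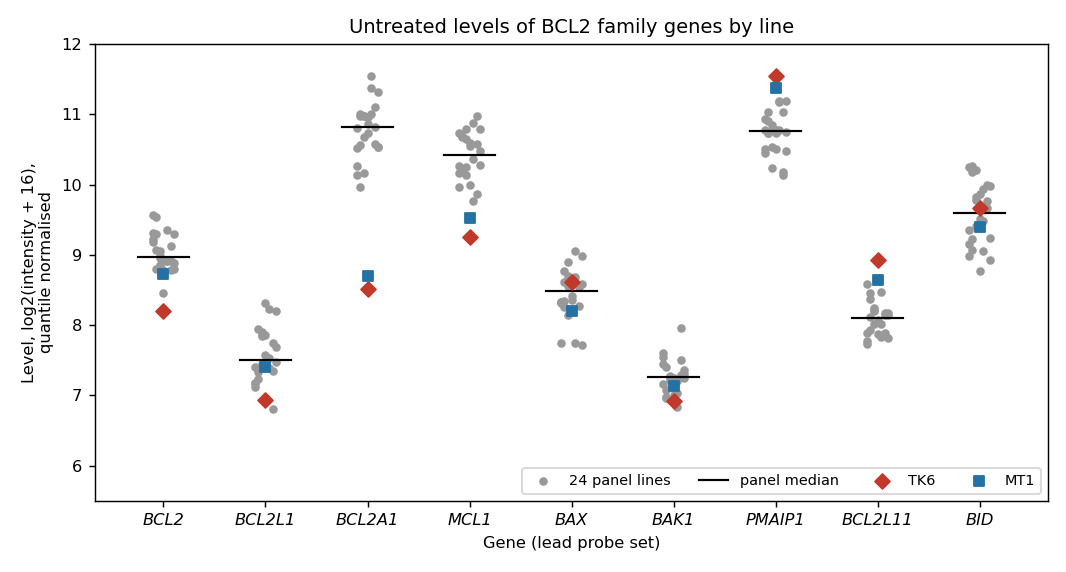
Untreated level of the leading probe set of each BCL2 family gene, as log2 of intensity plus 16 after quantile normalisation (y axis), by gene (x axis). Grey points are the 24 panel lines (means of duplicates), the bar is their median, and TK6 (red) and MT1 (blue) lie below all panel points for BCL2A1 and MCL1 and above them for BCL2L11 and PMAIP1.

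Untreated MT1 differed from untreated TK6 in 4 of 9 members (3 higher, 1 lower), where 25.2% of all genes did (13.6% higher, 11.7% lower). BCL2 read 8.26 and 8.14 in the TK6 duplicates and 8.72 in both MT1 arrays, so the lines did not overlap (MT1 minus TK6 0.52 ± 0.082, adjusted p = 2.84e-06). BCL2L1 read 6.79 and 7.09 in TK6 and 7.30 and 7.53 in MT1 (0.47 ± 0.13, adjusted p = 0.00459). MCL1 read 9.24 and 9.26 in TK6 and 9.48 and 9.55 in MT1 (0.26 ± 0.074, adjusted p = 0.00532). Thus 3 of the 4 anti-apoptotic members were higher in MT1, each by less than 1.5-fold. The fourth, BCL2A1, differed by 0.19 (adjusted p = 0.0559).

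BID was lower in MT1 on its leading probe set (-0.25 ± 0.088, adjusted p = 0.031) and higher on another (0.51), so its direction depends on the probe set. BAX differed by -0.42, BCL2L11 by -0.28, PMAIP1 by -0.16 and BAK1 by 0.21, none of them called. On values as deposited only BCL2 kept its call (1 higher, 0 lower). With arrays centred on their medians none did, while 2 members had an unadjusted p under 0.05. Averaging all probe sets of a gene turned the BCL2 difference to -0.01.

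MNNG changed 7 of 9 members in TK6, 6 of them upward and 1 downward, where 41.2% of all genes passed the same limma contrast (21.6% higher, 19.5% lower). The median change of the members was 0.52, against -0.03 over all genes. On their leading probe sets all 4 anti-apoptotic genes, BAK1 and PMAIP1 rose, and BCL2L11 fell. With the arrays set aside included, none of which is of TK6 but which share the estimate of spread, BCL2L1 alone was called.

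BCL2A1 changed most. Its TK6 arrays read 8.47 and 8.55 untreated and 10.44 and 10.34 after MNNG (deposited intensities of 330 and 337 against 1400 and 1240), a 3.68-fold rise (1.88 ± 0.076, adjusted p = 3.57e-23). The treated level of TK6 thus lay within the range of the untreated panel. BCL2L1 read 6.79 and 7.09 untreated and 8.26 and 8.22 after MNNG, a 2.47-fold rise (1.30 ± 0.13, adjusted p = 3.88e-11), and its other 2 probe sets gave 0.65 and 0.44, neither called. MCL1 read 9.24 and 9.26 untreated and 9.89 and 9.86 after MNNG (0.62 ± 0.074, adjusted p = 2.76e-09). Treated and untreated arrays lay apart for each of these genes by more than the gap between duplicates. The 1.54-fold change of MCL1 did not pass with arrays centred on their medians (0.45), and of its 5 probe sets 3 were called higher and 2 were not called (-0.37 and 0.40). BCL2 rose least of the 4, from 8.26 and 8.14 to 8.47 and 8.43 (0.25 ± 0.082, adjusted p = 0.0112). That call was lost on values as deposited, with centred arrays, and without the second untreated or the first MNNG array of TK6 (0.20 to 0.31 over the arrays left out), and 2 dim BCL2 probe sets fell, by 0.48 and by 1.12 (36.2% of all probe sets tested singly were called in TK6).

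Of the effectors, BAK1 rose and BAX was not called. BAK1 read 6.80 and 7.04 untreated and 7.75 and 7.49 after MNNG (0.70 ± 0.17, adjusted p = 0.000552). BAX read 8.47 and 8.77 untreated and 8.16 and 8.60 after MNNG, so its groups overlapped (-0.24 ± 0.22, adjusted p = 0.418). Both BAX probe sets gave a value below 0 in TK6, and MDM2, like BAX a textbook p53 target, rose by 2.95 in the same arrays.

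The BH3-only genes split. PMAIP1 read 11.39 and 11.69 untreated and 12.10 and 12.02 after MNNG (0.52 ± 0.13, adjusted p = 0.000921), and its second probe set gave 0.72. The PMAIP1 call on the leading probe set was lost with centred arrays (0.28) and without the first untreated array (0.37). BCL2L11 read 8.99 and 8.86 untreated and 7.82 and 8.05 after MNNG, and thereby fell by 0.99 ± 0.18, or 1.98-fold (adjusted p = 1.67e-05). Its treated level in TK6 was below the panel median of 8.09, whereas the untreated level had been above every panel line. A second BCL2L11 probe set fell by 0.73, and the other 4 were not called (-0.79 to -0.11). BID read 9.61 and 9.71 untreated and 9.55 and 9.44 after MNNG on its leading probe set (-0.16 ± 0.088, adjusted p = 0.161), but rose by 0.88 and 0.31 on the others.

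MT1, with 1 MNNG array left, showed 2 called members (1 higher, 1 lower) of 9, where 3.56% of all genes were called (2.36% higher, 1.21% lower). The lone array was assumed to vary like the other groups. BCL2A1 read 8.62 and 8.78 untreated and 9.45 after MNNG (0.75 ± 0.093, adjusted p = 1.28e-06). PMAIP1 read 11.30 and 11.46 untreated and 10.74 after MNNG (-0.64 ± 0.16, adjusted p = 0.0146), the opposite direction to TK6, although its second probe set gave -0.05. Neither MT1 call held when only TK6 and MT1 were fitted (0 genes called in all by limma, 1623 of them and 2 members at an unadjusted p under 0.05) or with centred arrays (2 members at an unadjusted p under 0.05), and with the array that had been set aside the BCL2A1 value in MT1 turned to -1.22.

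None of the other 7 members was called in MT1 on its leading probe set. The BCL2L11 probe set that fell by 0.73 in TK6 was called lower in MT1 too (-0.53), with a difference in response of -0.20 that was not called. The other BCL2L11 probe sets were not called in MT1 (-0.60 to 0.11). MCL1 read 9.48 and 9.55 untreated and 9.31 after MNNG (-0.21 ± 0.09), BCL2L1 7.30 and 7.53 against 7.54 (0.13), and BCL2 8.72 in both untreated arrays against 8.89 (0.17). BAX read 8.06 and 8.35 against 7.83 (-0.37), and BAK1 6.96 and 7.31 against 6.94 (-0.19). BCL2L11 read 8.72 and 8.57 against 8.43 (-0.21), and BID 9.36 and 9.45 against 9.43 (0.03). For BCL2L1, BAK1 and BID the treated array lay inside or within 0.02 of the untreated pair.

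**Figure D2:**
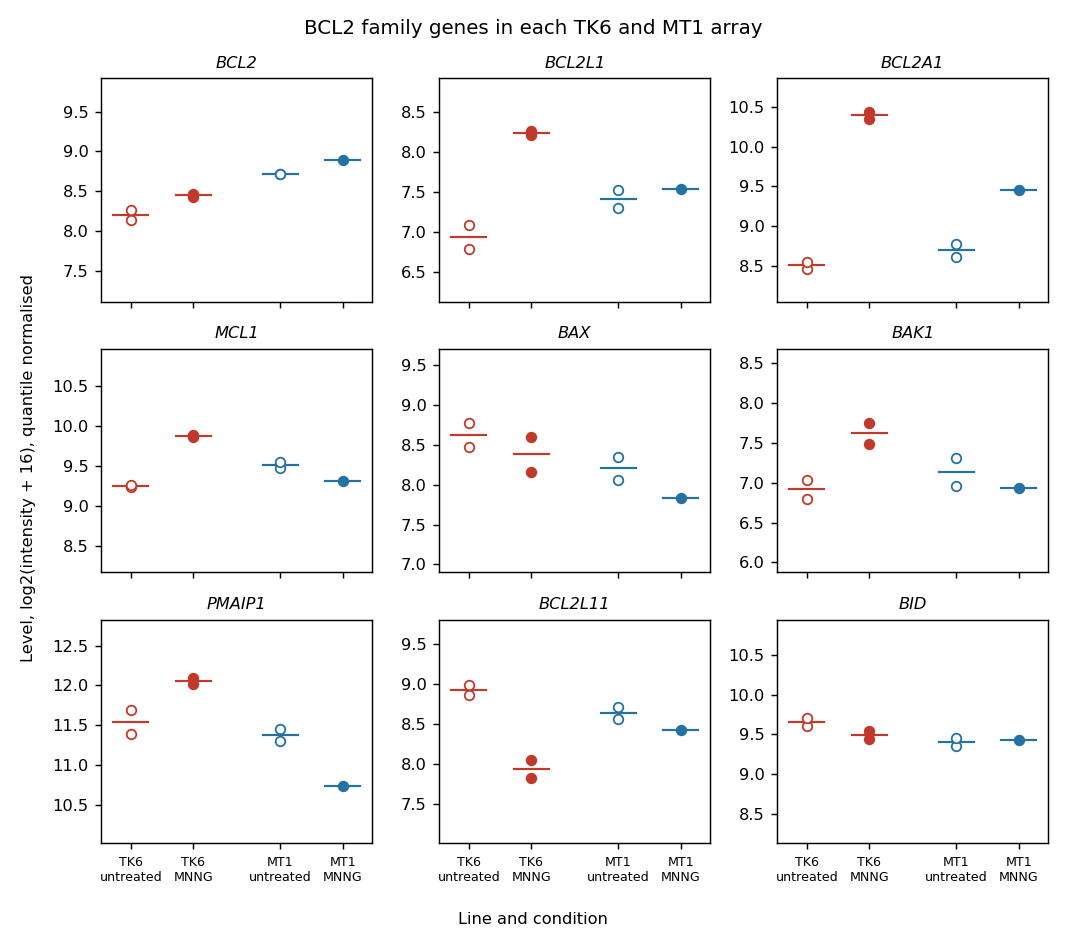
Level of each BCL2 family gene in every TK6 (red) and MT1 (blue) array kept, untreated (open) and after MNNG (filled), as log2 of intensity plus 16 after quantile normalisation (y axis); all panels span the same number of log2 units, and bars are group means. BCL2A1, BCL2L1, MCL1, BAK1 and PMAIP1 are higher and BCL2L11 lower in the MNNG arrays of TK6, and the single MNNG array of MT1 lies above its controls for BCL2A1 and below them for PMAIP1, its called changes.

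The response itself differed between the 2 lines for 6 of 9 members (5 higher in TK6, 1 lower), where 24.7% of all genes did (12.2% higher, 12.5% lower). The median difference in response was 0.83 for the members and -0.04 over all genes. Responses of TK6, of MT1 and their difference share the same untreated arrays, so these values are not independent of each other.

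The test of the response in TK6 minus that in MT1 gave 1.17 ± 0.20 for BCL2L1 (adjusted p = 2.03e-05), 1.13 ± 0.12 for BCL2A1 (adjusted p = 6.35e-10) and 0.83 ± 0.12 for MCL1 (adjusted p = 3.69e-07). BCL2 was not called (0.08 ± 0.13, adjusted p = 0.763), with a 95% interval of -0.18 to 0.33. The calls within the anti-apoptotic group were thus those of BCL2L1, BCL2A1 and MCL1. BAK1 differed by 0.90 ± 0.26 (adjusted p = 0.00929) and BAX by 0.13 ± 0.34 (adjusted p = 0.864, 95% interval -0.54 to 0.80). PMAIP1 differed by 1.16 ± 0.20 (adjusted p = 2.03e-05) and by 0.77 on its second probe set. BCL2L11 differed by -0.78 ± 0.29 (adjusted p = 0.0418), and BID by -0.18 ± 0.14 (adjusted p = 0.406).

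On leading probe sets, BCL2A1 and BCL2L1 kept their calls in every fit of the 82 arrays that changed 1 setting or left out 1 array (1.07 to 1.35 and 0.73 to 1.37 over the changed settings). The other 2 BCL2L1 probe sets gave 0.70 and 0.89 and were not called. BCL2L11 lost its call in 4 of the 6 fits that left out 1 array, and none of its 6 probe sets was called when taken singly (-0.78 to -0.07). Its call was also lost on values as deposited, with centred arrays, with no filter and with averaged probe sets. BAK1 lost its call in 3 of the 6 fits that left out 1 array, on values as deposited, and with TK6 and MT1 alone. MCL1 lost its call with averaged probe sets (0.39) and with centred arrays, and PMAIP1 with centred arrays. With centred arrays 3 members were called (3 higher, 0 lower), and on values as deposited 4 (4 higher, 0 lower). When the arrays set aside were used as well, none was called by limma, while 1 member and 1178 genes in all had an unadjusted p under 0.05.

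**Figure D3:**
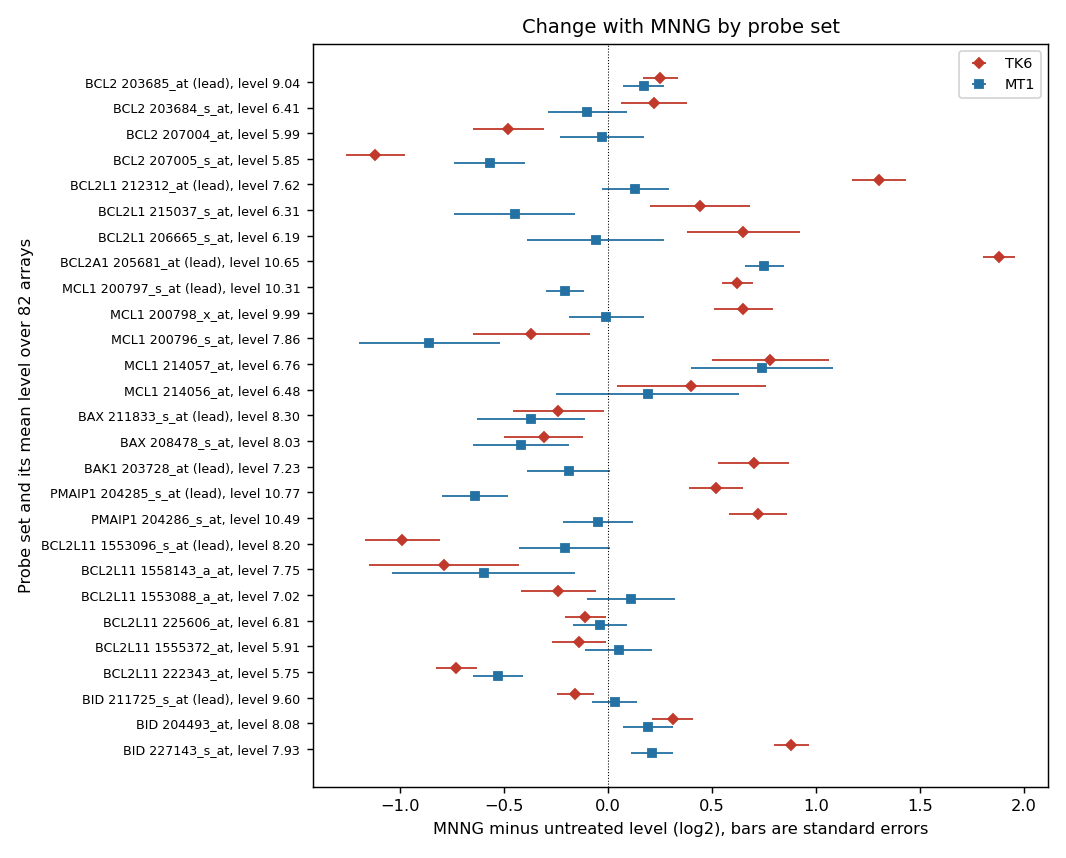
Change with MNNG in TK6 (red) and MT1 (blue) on each of the 27 BCL2 family probe sets tested, as MNNG minus untreated level in log2 units (x axis); bars are standard errors of limma, and the mean level over 82 arrays stands beside each name. Within TK6 the probe sets of each of BAX, PMAIP1, BCL2L1 and BCL2L11 point the same way, called or not, whereas those of BCL2, BID and MCL1 do not.

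The promoters of 4 of the 6 genes whose response differed between TK6 and MT1, of which 3 rose and BCL2L11 fell in TK6, were set side by side. Of the 10 members, 9 had an entry in the RefSeq promoter table (GRCh38.p14), and MCL1 had none. The 250 bases before the annotated start were searched for a TATA box (TATAAA, on the strand of the gene), and on both strands for an AP-1 site (TGANTCA), a cyclic AMP response element (TGACGTCA), and the p53 half-site and NF-kB consensus. Capitals mark a match. Of 35116 promoters in the table, 6.8% held the TATA box, 6.57% the AP-1 site, 1.65% the cyclic AMP element, 5.57% the p53 half-site and 5.21% the NF-kB consensus.
BCL2A1 (chr15:79971197-79971446, minus strand): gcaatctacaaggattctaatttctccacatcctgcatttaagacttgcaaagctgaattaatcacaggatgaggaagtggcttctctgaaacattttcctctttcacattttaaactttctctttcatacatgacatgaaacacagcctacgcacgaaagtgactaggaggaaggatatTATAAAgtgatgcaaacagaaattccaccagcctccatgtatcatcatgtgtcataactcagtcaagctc
BAK1 (chr6:33580277-33580526, minus strand): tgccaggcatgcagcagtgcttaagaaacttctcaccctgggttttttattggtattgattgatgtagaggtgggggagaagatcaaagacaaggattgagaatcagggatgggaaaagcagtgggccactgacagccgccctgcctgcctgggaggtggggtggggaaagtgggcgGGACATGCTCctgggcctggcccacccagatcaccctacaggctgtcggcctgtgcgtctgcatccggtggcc
PMAIP1 (chr18:59899746-59899995, plus strand): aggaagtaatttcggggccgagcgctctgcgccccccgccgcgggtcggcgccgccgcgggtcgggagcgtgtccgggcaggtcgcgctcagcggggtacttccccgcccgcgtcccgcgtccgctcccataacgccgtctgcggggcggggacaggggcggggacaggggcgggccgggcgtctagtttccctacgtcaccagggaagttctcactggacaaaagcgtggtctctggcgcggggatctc
BCL2L11 (chr2:111120664-111120913, plus strand): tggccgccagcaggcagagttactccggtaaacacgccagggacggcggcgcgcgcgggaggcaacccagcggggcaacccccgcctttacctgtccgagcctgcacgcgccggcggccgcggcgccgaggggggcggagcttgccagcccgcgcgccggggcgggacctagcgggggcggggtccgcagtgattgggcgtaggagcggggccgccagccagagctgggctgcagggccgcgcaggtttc

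The BCL2A1 promoter held a TATA box 70 bases before the start, and the BAK1 promoter a p53 half-site, GGACATGCTC, 73 bases before it. The windows of PMAIP1 and BCL2L11 held none of the motifs in these letters. The promoters also differed in base composition: 38.8% of the bases were G or C for BCL2A1, 58% for BAK1, 72.8% for PMAIP1 and 76.8% for BCL2L11, against a median of 58% and a 5th to 95th percentile of 34.4% to 78.4% in the table. BCL2L1, whose response differed too, has 2 starts in the table and is not printed: the more distal one (chr20:31723964-31724213, minus strand) had TATAAA at 208 and 125 bases, and the other had no match. BBC3 had an AP-1 site, TGAGTCA, 113 bases before its start. A match describes letters and is no evidence of binding.

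In the panel, MNNG changed 7 of 9 members (4 higher, 3 lower), where 42.6% of all genes were called (28.7% higher, 13.8% lower). The median member changed by 0.05 and the median gene by 0.04, so the changes went both ways and were small. None of the 7 reached 1.5-fold on its leading probe set. Lines were the independent unit (19 lines, duplicates averaged, limma with the line as a block). Treatment and replicate number were not balanced. Most lines with 1 MNNG array kept replicate 1 (lines 4 and 17 kept replicate 2), while their untreated mean held both replicates.

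BAX, the effector whose transcription p53 can raise, changed most. Over the 19 lines it ran from 7.71 through a median of 8.42 to 9.06 untreated and from 7.39 through 8.07 to 8.74 after MNNG, and it was lower after MNNG in 17 of 19 lines. Its mean change was -0.38 ± 0.061 (adjusted p = 2.57e-05), the same on both of its probe sets. The change in single lines ran from -0.80 in line 5 to 0.32 in line 4. Its median was -0.32 over the 11 lines with 1 MNNG array and -0.56 over the 8 with both. In line 3 BAX read 8.60 and 9.20 in untreated replicates 1 and 2, and 8.58 in MNNG replicate 1. There the fall thus rests on the second untreated array. BAX was called in all 10 changed settings (-1.49 with the arrays set aside included, -0.50 to -0.33 otherwise) and without each line. BAK1, the other effector, was not called (-0.06 ± 0.028, adjusted p = 0.105).

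MCL1 fell in the panel by 0.15 ± 0.025 (adjusted p = 5.22e-05) and was lower in 18 of 19 lines. It ran from 9.77 through 10.58 to 10.97 untreated and from 9.67 through 10.45 to 10.75 after MNNG. Of its 5 probe sets tested, 3 were called lower and 2 higher (-0.69 to 0.21), where 41.8% of all probe sets tested singly were called, so its transcript was not seen alike by all probe sets. BCL2L1 rose by 0.18 ± 0.046 (adjusted p = 0.00341, higher in 15 of 19 lines) on its leading probe set and fell by 0.30 and 0.38 on 2 dimmer ones. BCL2 rose by 0.12 ± 0.047 (adjusted p = 0.0393, higher in 14 of 19 lines), a call lost in 11 of the 19 fits that left out 1 line, and turned to -0.03 with centred arrays. BCL2A1, which rose 3.68-fold in TK6, differed by 0.05 ± 0.033 in the panel (adjusted p = 0.19).

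Of the BH3-only genes, BCL2L11 rose by 0.21 ± 0.039 (adjusted p = 0.000132) and was higher in 17 of 19 lines, from 7.73 through 8.07 to 8.47 untreated to 8.01 through 8.23 to 8.65 after MNNG. The call was lost with centred arrays (0.09) and with averaged probe sets (0.00), and singly 2 of the 6 BCL2L11 probe sets were called higher and 4 were not called (-0.23 at the lowest). TK6 gave -0.99 for the same probe set, below the lowest panel line (-0.13, line 24). BID rose by 0.09 ± 0.026 (adjusted p = 0.00801), and by 0.18 and 0.15 on its other probe sets, but turned to -0.07 with centred arrays. PMAIP1 changed by -0.13 ± 0.048 (adjusted p = 0.0402, lower in 16 of 19 lines) on its leading probe set and by 0.16 on the second, and the former call was lost in 14 of the 19 fits that left out 1 line. Its direction in the panel is therefore not settled.

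With each array centred on its median, 4 members were called in the panel (0 higher, 4 lower), and on values as deposited 5 (2 higher, 3 lower). Without replicate 1, which leaves 10 lines, BAX alone was called. These scalings also moved the median of all genes, from 0.04 to -0.02 and 0.13 in the panel, from -0.03 to -0.08 and 0.12 in TK6, and from 0.03 to -0.13 and 0.31 in MT1. Under both scalings BAX, MCL1 and the leading probe set of PMAIP1 kept their direction and their call in the panel, as did BCL2A1, BCL2L1, BAK1 and BCL2L11 in TK6.

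The response differed between panel lines for 2 of 9 members, BCL2 (limma F test, adjusted p = 0.000272) and BCL2A1 (adjusted p = 0.0357), where 6.13% of all genes were called. BCL2 ran from -0.21 in line 14 to 0.62 in line 4, and BCL2A1 from -0.28 in line 14 to 0.39 in line 4. The same lines thus gave both extremes for both genes. BCL2L1 ran from -0.05 in line 14 to 0.74 in line 4 (adjusted p = 0.274), and PMAIP1 from -0.52 in line 21 to 0.58 in line 4 (adjusted p = 0.182), neither of them called. The BCL2A1 call was lost without line 4, 9, 14 or 17, where its range was 0.49 to 0.67. Neither call held on values as deposited or with centred arrays. BCL2 also lost its call with averaged probe sets, and BCL2A1 with no filter and with probe sets taken singly.

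Line 4 gave the highest response of the 19 for BCL2, BCL2A1, BCL2L1, BAX and PMAIP1. It kept 1 MNNG array. In it BCL2L1 read 7.91 and 7.81 untreated and 8.60 after MNNG, PMAIP1 10.46 and 10.53 against 11.08, and BCL2A1 10.85 and 10.87 against 11.25. For each of these the treated array lay above both controls by more than the gap between them. For MCL1, which rose in TK6, line 4 read 10.65 and 10.53 untreated and 10.55 after MNNG. The untreated level of MGMT, the enzyme that removes the methyl group MNNG leaves on guanine, was 5.12 in line 4, close to the floor of 5 and to TK6 (5.20) and MT1 (5.27). The other panel lines with a kept MNNG array had MGMT levels of 5.90 (line 9) or higher. Its part in the response of line 4 was not tested.

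The change in TK6 was set beside those of the panel lines. For BCL2A1, BCL2L1, MCL1 and BAK1 none of the 19 panel lines reached the change seen in TK6, and for PMAIP1 1 line, line 4, did (0.58 against 0.52). For BCL2L11 all 19 lines lay above TK6. For BID they did so on the leading probe set, whose TK6 value was not called, while on another TK6 gave 0.88, above every panel line (-0.01 to 0.35). For BCL2 4 panel lines exceeded TK6 (0.25), and for BAX the panel ran on both sides of it (-0.80 to 0.32 against -0.24). The median absolute change over all genes was 0.29 in TK6, against 0.084 for the mean change of the panel. How many of all genes lie outside the 19 lines in TK6 was not counted. These positions are thus not shown to be particular to the family. The difference between TK6 and the panel in response was not tested.

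**Figure D4:**
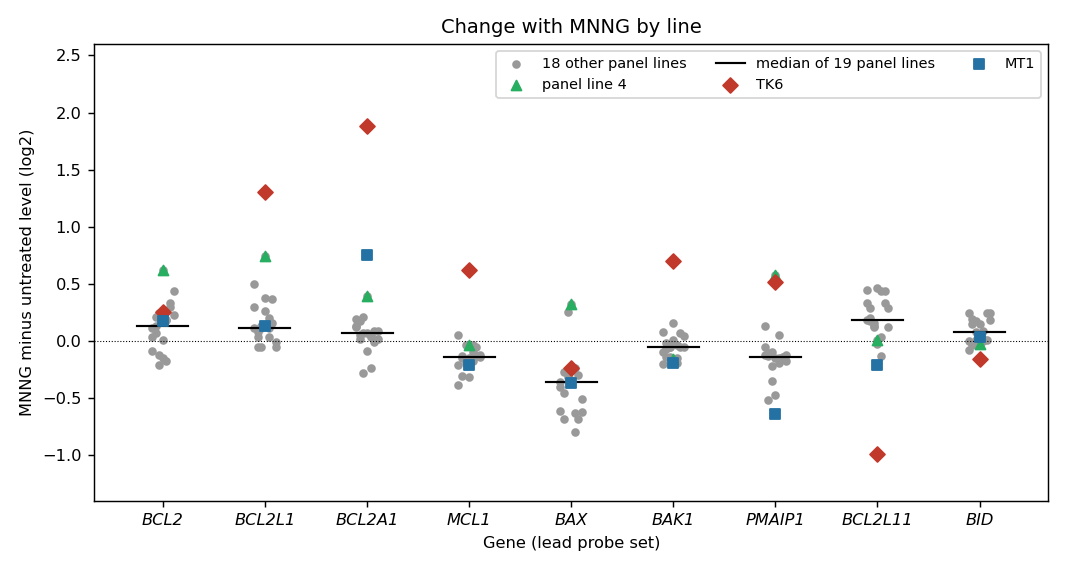
Change of each BCL2 family gene with MNNG by line, as MNNG minus untreated level in log2 units (y axis; leading probe set), by gene (x axis). Grey points are 18 panel lines, the green triangle is panel line 4, the bar is the median of all 19, and TK6 (red) lies above every panel point for BCL2A1, BCL2L1, MCL1 and BAK1 and below every one for BCL2L11 and, on this probe set, BID, whose TK6 value was not called. How many of all genes lie outside the panel in TK6 was not counted.

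Other members of the family, read from a list of 15 genes of which 13 were tested, included 3 that rose and 6 that fell in TK6, where 21.6% of all genes were called higher and 19.5% lower. BNIP3 and BNIP3L, which mark mitochondria for removal and respond to low oxygen, changed by -2.97 ± 0.10 and -2.41 ± 0.25 (adjusted p = 5.31e-25 and 7.41e-11). BCL2L10 fell by 1.30 and BNIP1 by 1.06. In MT1 only BCL2L12 was called (0.40 ± 0.12), and BNIP3 gave 0.13. Untreated MT1 already read lower than TK6 for BNIP3 (-3.01), BCL2L10 (-2.78) and BNIP3L (-2.74). In the panel 4 of the 13 rose and 2 fell, where 28.7% of all genes were called higher and 13.8% lower. BNIP3L and BNIP3 were lower there by 0.63 and 0.55. BMF, a BH3-only gene, was lower in untreated TK6 and MT1 than in the panel (-1.06).

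Of 16 tested genes that act at or after the release of cytochrome c, 6 rose and 5 fell in TK6, where 41.2% of all genes were called. APAF1, the scaffold of the apoptosome, rose by 2.01 ± 0.12 (adjusted p = 2.07e-17), the protease HTRA2 by 1.08 and the caspase CASP6 by 0.93, and ENDOG fell by 0.81. APAF1 gave 0.39 in MT1 (adjusted p = 0.162), and the response differed between these lines by 1.63 ± 0.19 (adjusted p = 9.86e-09). In the panel 8 of the 16 rose and 1 fell (28.7% and 13.8% of all genes), led by the caspase inhibitor XIAP (0.37 ± 0.05, adjusted p = 2.57e-06), which was called in TK6 (0.61) and MT1 (0.68) too.

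Of 19 tested regulators of the family, 8 rose and 4 fell in TK6, again beside 41.2% of all genes. MDM2, the ligase that limits p53, rose by 2.95 ± 0.15 (adjusted p = 5.77e-20), and FBXW7, a subunit of a ligase that turns over MCL1, by 1.48 ± 0.11. MDM2 gave 0.50 in MT1 (adjusted p = 0.126) and rose by 0.47 ± 0.088 in the panel. The response in TK6 exceeded that in MT1 for 7 of the 19 and was lower for 1 (24.7% of all genes were called in either direction), led by MDM2 (2.44), FBXW7 (1.23), USP9X, a deubiquitinase that stabilises MCL1 (1.00), and E2F1 (0.91). NFKB1, a subunit of NF-kB, fell by 0.30 ± 0.041 in the panel and was not called in TK6 (0.27). The median of this list was 0.27 in TK6, against -0.03 over all genes, and -0.03 in the panel.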

How the data were processed

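The authors deposited 1 table of PLIER intensities on a linear scale (floor 16, ceiling 65535), per the submitters' processing notes; neither the version of PLIER nor a batch of any array is given in the sources used here. Members and gene lists were chosen with earlier results of these data known. Named genes are all measured members and, from each list, up to 4 called genes with the largest change per comparison, with a few others for comparison.

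Values were transformed as log2(intensity + 16) and quantile normalised with limma 3.58.1 in R 4.3.3 on the 82 arrays kept. The number of arrays limits the precision. Each of 19775 genes was represented by its probe set of highest mean, with symbols updated through RefSeq; the 30% with the lowest mean were dropped, leaving 13842 (probe sets taken singly: 28768). Of the probe sets, 41097 had 1 symbol, 1801 several and 11777 none. Tests were limma's moderated tests with a trend, Benjamini-Hochberg adjusted over all genes and called below 0.05. ± is a standard error. The panel fit used line means with the line as a block; the other fits used single arrays with a mean per group, and TK6 and MT1 together were 1 unit against 24 lines. The scripts were tested on simulated data. Alternatives were use of the arrays set aside, scaling, pseudocounts of 1 and 64, no filter, other uses of probe sets, a replicate block, TK6 and MT1 alone, and leaving out arrays or lines. Figures used Python 3.11.15 with matplotlib 3.10.9.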

Additional observations from a re-analysis of the deposited data

Results flagged for a closer look

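The response to MNNG differed between TK6 and MT1 for 6 of 9 members, by limma's test of the difference itself, where 24.7% of all genes were called. The response in TK6 exceeded that in MT1 by 1.17 for BCL2L1, 1.16 for PMAIP1, 1.13 for BCL2A1, 0.90 for BAK1 and 0.83 for MCL1 on the log2 scale, and was lower by a difference of -0.78 for BCL2L11. MT1 entered with 1 MNNG array. Of 10 changed settings, the call was lost in 6 for BCL2L11, in 3 each for BAK1 and MCL1, and in 2 for PMAIP1. For BCL2A1 and BCL2L1 it was lost in 1, the use of the arrays set aside.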

How the results depend on the processing

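Over all alternatives, counts of called members stayed within 1.5 times the reported count in 154 fits and moved further in 26. Values of single members kept direction and side of the threshold in 1460, lost their call in 131, gained one in 9 and reversed in 20. The cause of these changes was not tested.

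With the arrays set aside included, the called members numbered 1 in TK6 (reported: 7), 0 in MT1 (reported: 2; 1357 genes and 1 member at an unadjusted limma p under 0.05), 0 for the difference between TK6 and MT1 (reported: 6) and 0 for the difference between panel lines in response (reported: 2; 2 at an unadjusted p under 0.05). With arrays centred on their medians they numbered 4 in the panel (reported: 7), 4 in TK6, 0 in MT1, 3 for the difference, 0 for untreated MT1 minus TK6 (reported: 4) and 0 between panel responses (0 at an unadjusted p under 0.05). On values as deposited they numbered 1 in MT1, 1 for untreated MT1 minus TK6 and 0 between panel responses (2 at an unadjusted p under 0.05). The mean of all probe sets gave 4 in the panel and 1 for untreated MT1 minus TK6, TK6 and MT1 alone gave 0 and 1 for MT1 and for untreated MT1 minus TK6, and no filter gave 1 between panel responses. Panel lines with both MNNG arrays, an alternative chosen after seeing the data, gave 4. Leaving out 1 array, replicate or line gave 1 to 8 in the panel (1 without replicate 1, where 10 lines remain), 6 to 7 in TK6, 1 to 2 in MT1 (1 without the second untreated MT1 array), 4 to 6 for the difference, 2 to 4 for untreated MT1 minus TK6 (2 without the same array) and 1 to 2 between panel responses.

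Values that reversed were, in the panel, BCL2 (-0.03 with centred arrays, -0.22 on another probe set), BCL2L1 (-0.12 with averaged probe sets, -0.38 on another), BID (-0.07 with centred arrays) and PMAIP1 (0.45 with the arrays set aside included, 0.02 averaged, 0.16 on another probe set). In TK6 they were BCL2 (-0.28 averaged, -1.12 on another) and BID (0.34 and 0.88), and in MT1, with those arrays included, BCL2A1 (-1.22) and PMAIP1 (0.26). BID gave 0.67 on another probe set for the difference. For untreated MT1 minus TK6 BCL2 gave -0.01 averaged, BCL2L11 0.36 on another probe set, and BID 0.17 and 0.51, and BCL2 gave 0.62 on another for TK6 and MT1 against the panel.

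Replicate numbers did not pair the samples in the 9 lines that kept both MNNG arrays. There, untreated and MNNG arrays of one number deviated together (r over 0.1) in 2 of 9 lines, with r from -0.623 to 0.137. This check leaves out the panel lines with 1 MNNG array. It also cannot show whether untreated replicates 1 and 2 differed alike from line to line. With the replicate block, 7 members were called in the panel, 7 in TK6, 2 in MT1, 6 for the difference, 5 for untreated MT1 minus TK6, 2 between panel responses and 9 between untreated lines.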
